A study of Bos taurus with 56 samples.

Results

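Accessible chromatin of cattle (Bos taurus) morulae derived in vivo was set against that of morulae whose labels carry no such statement. The members were all 145897 peaks of both deposited morula lists, 57039 from the in vivo morulae and 88858 from the morulae without that label, out of 673059 peaks in the 11 lists of the series. A peak with at least 1 bp in common with the opposite morula list was counted as shared, and all others as in vivo only or without-label only. The split used positions alone, and no measured height entered it.

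Both groups were measured by ATAC-seq, an assay in which a transposase cuts and tags DNA that is not wrapped in closed chromatin. The in vivo list was merged by the authors from 4 libraries and the list without the label from 6 libraries, each made from pooled embryos. The labels give no breed, sex, age in hours, culture medium or treatment for either group, and do not say how the morulae without the label were produced. For comparison with other stages, the 8-cell (5 libraries), 16-cell (5 libraries) and day 14 elongating embryo (6 libraries) lists were used, and the blastocyst lists (4 libraries in vivo and 3 without the label) were set beside the morulae as the other pair with the same contrast. The 8-cell, 16-cell and day 14 labels carry no statement of derivation in vivo either.

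The morula is the compact ball of cells that forms before the fluid-filled cavity of the blastocyst appears. In cattle the embryonic genome has by then been switched on, and the first choice between inner cells and the future trophectoderm is under way. Open regions in such cells are mostly promoters and enhancers, the places where transcription factors bind, and a wide region often holds several neighbouring sites. Embryos derived in vivo are those that developed in the reproductive tract of the animal, and they are the usual yardstick for embryos from culture.

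No height, read count, p-value or score accompanies the peaks, so the depth of each list is unknown and the spread between libraries could not be computed. Every difference is therefore a difference between 2 merged lists, with no test. The 95% exact Clopper-Pearson intervals cover counting error only and treat neighbouring peaks as independent. Positions are given on build UMD3.1, and no gene was assigned to a peak, since no annotation of that build was used. No sequence is shown for the same reason.

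The in vivo list covered 42.5 Mb, 1.60% of the 2661 Mb spanned by the lists, and the list without the label covered 65.7 Mb or 2.47%. Both lists had in common 25.5 Mb, which was 59.995% of the in vivo bases, 38.8% of the bases without the label and 30.8% of the bases open in either. By number, 34705 in vivo peaks (60.8%, interval 60.4% to 61.2%) and 34045 peaks without the label (38.3%, interval 38.0% to 38.6%) were shared. The shared numbers were close, so the gap between these shares follows from the unequal list lengths. With the longer list cut to its 57039 widest peaks, none under 410 bp, the shares were 54.7% in vivo and 52.1% without the label. With an overlap of 50% of both peaks required and the lists uncut, they were 36.2% in vivo and 23.2% without the label. The 1 bp rule left 22334 in vivo only peaks and 54813 without-label only peaks, or 8.39 and 20.6 per Mb. The unshared peaks were narrower than the shared ones on both sides, so the 39.2% of in vivo peaks that were unshared made up 24.7% of the in vivo bases. The 61.7% of unshared peaks without the label made up 42.1% of that list's bases.

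Median width was 752 bp for shared in vivo peaks (quartiles 475 and 1178 bp) and 405 bp for in vivo only peaks (336 and 534 bp). Without the label it was 948 bp for shared peaks (579 and 1429 bp) and 409 bp for unshared ones (319 and 593 bp). The 2 unshared classes thus had similar medians, whereas the shared peaks were wider without the label. The share of a list found in the other one went with width. Of peaks of at least 1000 bp, 95.02% of the 12311 in vivo ones and 82.0% of the 19394 without the label were shared. Of peaks under 350 bp, 33.0% of 10251 in vivo and 12.8% of 21707 without the label were shared. The narrowest in vivo peak spanned 268 bp and the narrowest peak without the label 161 bp, so the lists did not start at the same width.

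**Figure D1:**
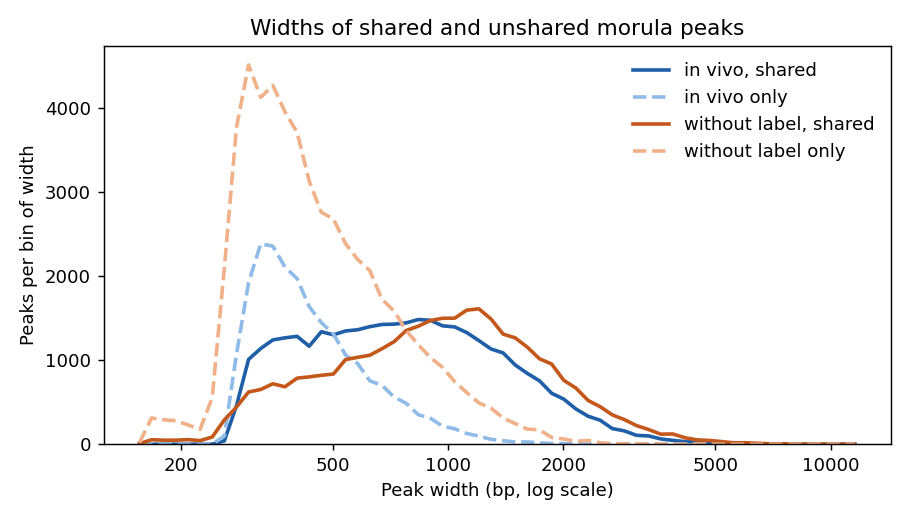
Number of peaks (y axis) against peak width in bp on a log scale (x axis, 60 bins) for the 4 classes of morula peaks. The unshared classes (dashed) have medians of 405 bp in vivo and 409 bp without the label, and the shared peaks (solid) reach to 11608 bp in vivo and 11047 bp without the label, with medians of 752 bp in vivo and 948 bp without the label.

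Unshared peaks did not lie right beside a peak of the other list in most cases. For in vivo only peaks the median distance to the opposite list was 6019 bp, and for without-label only peaks it was 11882 bp. Within 500 bp there was such a neighbour for 12.5% of in vivo only peaks and for 7.12% of without-label only peaks. Within 10000 bp it was 61.2% and 46.7%, the longer list being the target in the first case.

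At most shared places 1 peak faced 1 peak. There were 28652 such matched regions, which held 82.6% of the shared in vivo peaks and 84.2% of the shared peaks without the label. In the others, 1696 in vivo peaks spanned 2 or more peaks without the label and 2262 peaks without the label spanned 2 or more in vivo peaks, up to 6 in either case.

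In the matched regions the median width was 745 bp in vivo (quartiles 477 and 1147 bp) and 936 bp without the label (592 and 1371 bp). The median log2 width ratio, in vivo over without the label, was -0.23 (interval -0.24 to -0.22 for the median), with quartiles of -0.75 and 0.24. The in vivo peak was the wider one in 10581 regions (36.9%), the narrower one in 18039 (63.0%) and equal in 32. Both edges contributed alike, since the in vivo peak began a median of 61 bp inside the left edge of the other peak and ended 59 bp inside its right edge. It lay wholly inside the other peak in 35.9% of regions and enclosed it in 15.1%, and in 49.0% the peaks were staggered. The midpoints were a median of 150 bp apart.

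A difference of 2 times or more in width was found in 1679 regions that were wider in vivo (5.86% of 28652) and in 4797 that were wider without the label (16.7%). These are counts over all matched regions, so they are themselves the background for any single region. By quintiles of width, taken as the geometric mean of both peaks, the median log2 ratio was -0.06 in the narrowest quintile, -0.38 and -0.36 in the next ones, -0.25 in the fourth and -0.16 in the widest. The widest quintile also varied least, with quartiles of -0.49 and 0.14, against -1.08 and 0.29 in the second quintile. The narrowest quintile reached only 519 bp. As no in vivo peak was under 268 bp and peaks without the label began at 161 bp, these limits bound the ratios there.

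**Figure D2:**
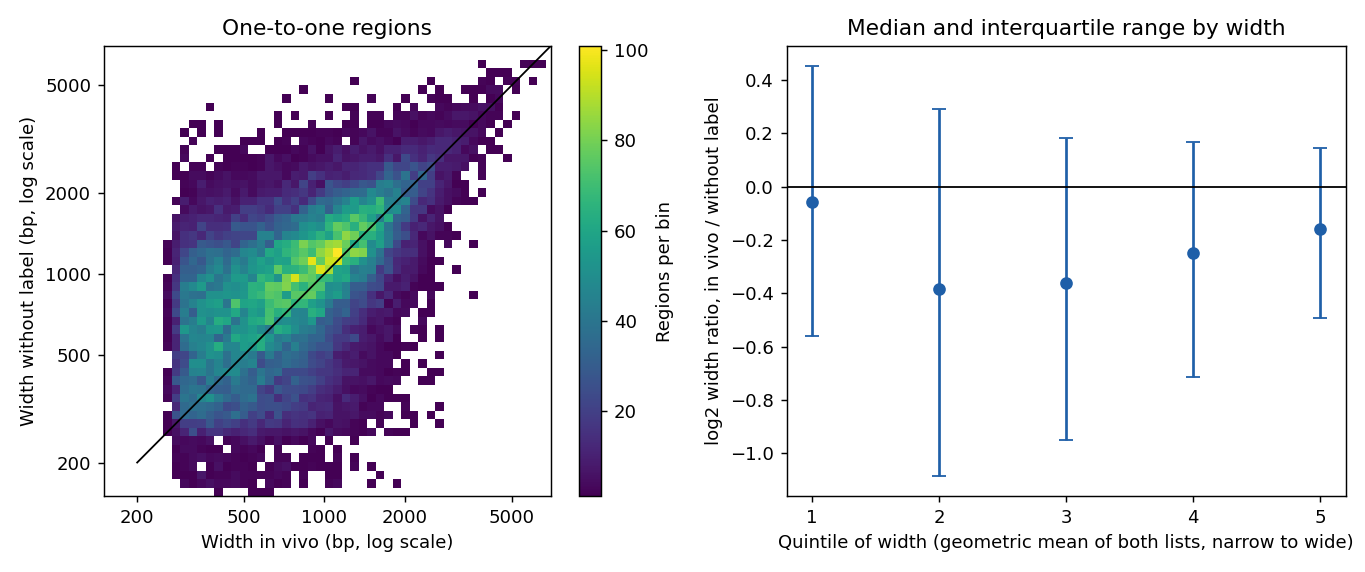
Left, number of matched regions (colour) by width in vivo (x axis) and without the label (y axis), both in bp on log scales, with the line of equal width. Right, median log2 width ratio, in vivo over without the label, with quartiles as bars, for quintiles of width; all 5 medians lie below 0, from -0.38 to -0.06.

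The regions most unequal in width differed by about an order of magnitude. On chromosome 15 the in vivo peak from 61212372 to 61212688 spanned 317 bp and the peak without the label, from 61212063 to 61215586, spanned 3524 bp, a difference of 11.1 times. This region was also open at the 8-cell and 16-cell stages and at day 14. On chromosome 4 an in vivo peak of 302 bp from 5758998 to 5759299 faced one of 3348 bp, and the 16-cell list alone of the 3 stage lists had a peak there. On chromosome 7 an in vivo peak of 381 bp from 112583667 to 112584047 faced one of 4117 bp. The in vivo peak there lay 7182 bp from one of the widest without-label only peaks, named further on. In the other direction, an in vivo peak of 1860 bp on chromosome 17 from 25084933 to 25086792 faced one of 170 bp, 10.9 times narrower. In vivo peaks of 2624 bp on chromosome 22, from 28870010 to 28872633, and of 1585 bp on chromosome 10, from 88819728 to 88821312, faced peaks of 289 and 176 bp. All 3 regions wider in vivo had a day 14 peak, none had an 8-cell peak, and the one on chromosome 22 had a 16-cell peak.

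Stage lists were then compared over all matched regions by their width ratio. Regions at least 2 times wider in vivo had a 16-cell peak in 36.1% of cases (interval 33.8% to 38.4%) and an 8-cell peak in 22.8% (20.8% to 24.8%). Regions at least 2 times wider without the label had a 16-cell peak in 64.4% (63.0% to 65.7%) and an 8-cell peak in 41.8% (40.4% to 43.2%). For day 14 the 2 ends were alike, at 62.5% (60.2% to 64.9%) and 62.2% (60.8% to 63.6%), and regions of nearly equal width, within 0.25 on the log2 scale, stood higher at 74.0%. The regions wider in vivo were smaller, with a median geometric mean width of 609 bp against 724 bp. Weighting each class to the widths of all matched regions gave 43.1% and 66.4% for the 16-cell stage, 29.2% and 43.7% for the 8-cell stage, and 68.0% and 64.2% for day 14.

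Among all peaks, those shared by both morula lists were found again at other stages in similar shares whichever list was counted. Shared peaks overlap each other by definition, so these shares were bound to be close. Of the shared in vivo peaks 41.1% had an 8-cell peak, 59.3% a 16-cell peak and 66.5% a day 14 peak, and of the shared peaks without the label 41.6%, 59.8% and 67.8%. The unshared peaks had lower shares, and those of the in vivo list the lowest. An 8-cell peak was found at 6.70% of in vivo only peaks (interval 6.37% to 7.03%) and at 15.6% of without-label only peaks (15.3% to 15.9%). A 16-cell peak was found at 8.55% (8.18% to 8.92%) and 23.6% (23.3% to 24.0%). At day 14 the shares were 24.4% (23.8% to 24.95%) and 32.1% (31.7% to 32.5%), the smallest gap of the 3 in relation to its level. All 3 stage lists lack the in vivo label, and the labels do not say whether the 3 had the same origin. A relation to stage therefore cannot be told apart from one to origin.

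**Figure D3:**
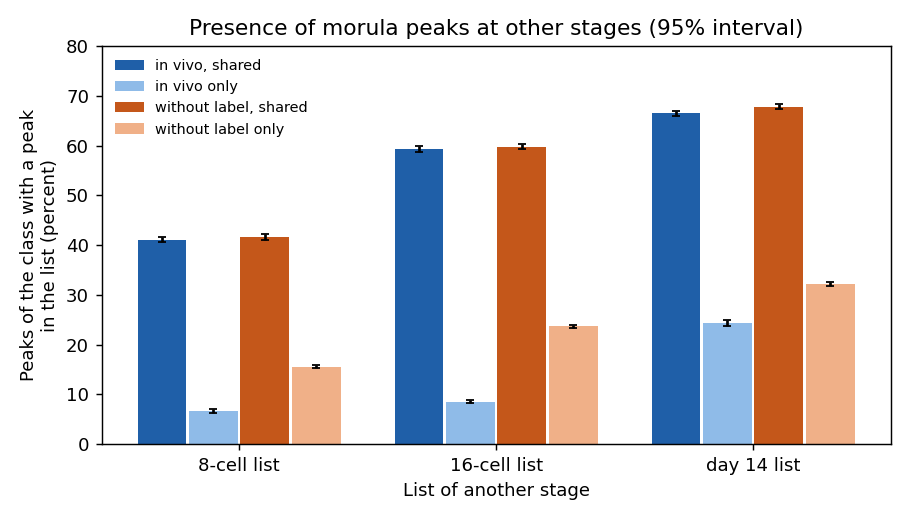
Percent of the peaks of each morula class (y axis) that overlapped a peak of the 8-cell, 16-cell and day 14 lists (x axis), with 95% exact intervals as bars. In vivo only peaks stand between 6.70% and 24.4%, without-label only peaks between 15.6% and 32.1%, and the shared peaks of both lists between 41.1% and 67.8%.

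These shares remained apart when widths were made equal. With the without-label only peaks weighted to the widths of the in vivo only peaks, their shares were 14.7% at the 8-cell stage, 22.1% at the 16-cell stage and 31.3% at day 14. Among unshared peaks of at least 1000 bp, 20.9% of the 613 in vivo ones and 58.5% of the 3482 without the label had a 16-cell peak, whereas 49.1% and 47.2% had a day 14 peak. In the widest class the unshared peaks of both lists were thus close at day 14 and far apart at the 16-cell stage. Weighted to the widths of shared in vivo peaks, in vivo only peaks reached 10.49%, 15.9% and 36.5% at the 3 stages, below the shares of the shared peaks. Under the 50% overlap rule the difference between the unshared classes, in vivo only minus without-label only, was -1.60 points at the 8-cell stage, -3.67 at the 16-cell stage and -2.40 at day 14, against -8.90, -15.1 and -7.73 under the 1 bp rule.

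The combinations of stages showed the same order. Of the in vivo only peaks 1.28% were in all 3 of the 8-cell, 16-cell and day 14 lists, 19.1% in the day 14 list alone of these, and 68.4% in none. Of the without-label only peaks 4.28% were in all 3, 20.1% in the day 14 list alone, and 50.9% in none. Without a day 14 peak, 1.51% of the in vivo only peaks were in both the 8-cell and 16-cell lists, 3.21% in the 16-cell list alone and 2.48% in the 8-cell list alone. For without-label only peaks these shares were 5.97%, 7.79% and 3.22%. Of all in vivo only peaks, 15205 (68.1%) were in none of the other 9 lists of the series besides the morulae, against 27704 (50.5%) of the without-label only peaks. The lists added here, of oocytes, 2-cell and 4-cell embryos and blastocysts, are short, with 730 to 5810 peaks. These shares are therefore nearly those for the 3 stage lists alone. Of the shared peaks, 16.8% of the in vivo ones and 16.3% of those without the label were in no further list.

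Seen from the other stages, 24.7% of the 59186 8-cell peaks overlapped peaks of both morula lists, 2.68% peaks of the in vivo list only and 15.3% peaks found without the label only. For the 75925 16-cell peaks these shares were 28.6%, 2.84% and 18.6%, and for the 372509 day 14 peaks 6.73%, 1.72% and 5.53%. Stage peaks facing the list without the label only were thus more numerous than those facing the in vivo list only at all 3 stages. The list without the label is the longer one and was merged from more libraries, and the part of either in these shares was not tested.

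Peak density was compared per chromosome after dividing by the density of each list, 21.4 peaks per Mb in vivo and 33.4 per Mb without the label. On the 29 autosomes the ratio of these relative densities, in vivo over without the label, lay between 0.769 and 1.18 with a median of 1.01, and 19 autosomes were within 10% of 1. The highest ratios were found on chromosome 10 (1.18, interval 1.13 to 1.24), chromosome 22 (1.15, 1.07 to 1.23) and chromosome 16 (1.14, 1.08 to 1.21). The lowest were found on chromosome 27 (0.769, 0.698 to 0.847), chromosome 11 (0.876, 0.829 to 0.926) and chromosome 24 (0.917, 0.848 to 0.991). On chromosome 27 there were 13.9 peaks per Mb in vivo and 28.1 without the label, and on chromosome 10 there were 28.6 and 37.7. Across the 29 autosomes the densities of both lists went together, with a Pearson correlation of 0.85, a description in which all points share the same 2 lists.

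Shared peaks lie in both lists by definition, and on the autosomes their ratio lay between 0.971 and 1.02. The ratio over unshared peaks alone, divided by the ratio of all unshared peaks, was 0.663 on chromosome 27, 0.682 on chromosome 11 and 1.36 on chromosome 10. On chromosome 11, 69.5% of the in vivo peaks were shared, and on chromosome 20 54.4%, the lowest share among the autosomes. In the list without the label the shares ran from 29.8% on chromosome 27 to 48.4% on chromosome 18.

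The X chromosome stood apart from every autosome. It held 1235 in vivo peaks, 8.30 per Mb, and 3785 peaks without the label, 25.4 per Mb. Relative to the autosomes, X density was 0.374 in vivo and 0.751 without the label, a ratio of 0.497. The other lists had 0.568 at the 8-cell stage, 0.5004 at the 16-cell stage and 0.175 at day 14, so the in vivo morulae lay below and the morulae without the label above the stages from 8 to 16 cells. Shared peaks, at the same places in both lists by definition, had an X density of 0.472 of the autosomal one in vivo and 0.463 without the label. In vivo only peaks, of which 290 were on X, had 0.222, and the 2876 without-label only peaks on X had 0.935. Accordingly 76.5% of the in vivo X peaks and 24.0% of the X peaks without the label were shared.

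The share of peaks on X was lower in vivo in all 5 classes of width, with a ratio between 0.427 for peaks of at least 1000 bp and 0.516 for peaks of 350 to 500 bp. Where both lists did have a peak on X, the in vivo one was narrower relative to its partner than on the autosomes. The 802 matched X regions had a median width of 627 bp in vivo and 1028 bp without the label, a median log2 ratio of -0.55. The medians of the 29 autosomes lay between -0.31 and -0.09. On X 28.7% of matched regions were at least 2 times wider without the label, against 16.7% over all chromosomes. The without-label only peaks on X had a 16-cell peak in 23.3% of cases (interval 21.8% to 24.9%), like those on autosomes at 23.7% (23.3% to 24.0%). Their day 14 share was 20.5% (19.02% to 22.0%) on X and 32.8% (32.4% to 33.2%) on autosomes. The labels do not give the sex of the pooled embryos, and its part in the X density was not tested.

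**Figure D4:**
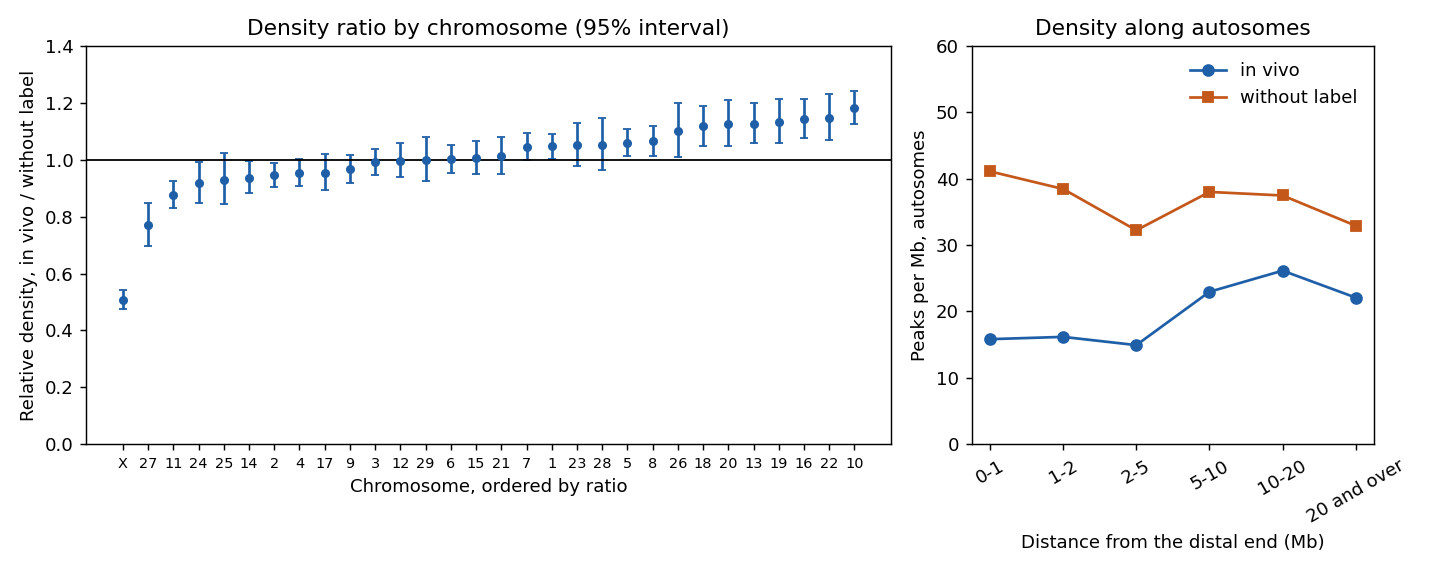
Left, ratio of relative peak density, in vivo over without the label (y axis), for each chromosome in order of the ratio (x axis), with 95% exact intervals as bars; X lies at 0.508 and the autosomes between 0.769 and 1.18. Right, peaks per Mb on the autosomes (y axis) by distance from the distal end in Mb (x axis), with 15.8 in vivo and 41.1 without the label in the last Mb.

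Along the autosomes the ratio was lowest near the distal ends. Bovine autosomes have their centromere at one end, and distances were taken from the opposite, distal end, set as the last position covered by any list. In the last Mb the in vivo list held 15.8 peaks per Mb and the list without the label 41.1, a ratio of relative densities of 0.600 (interval 0.537 to 0.669). Between 1 and 2 Mb it was 0.655, between 2 and 5 Mb 0.722 and between 5 and 10 Mb 0.941, and from 10 to 20 Mb it was 1.09 (1.06 to 1.12). Beyond 20 Mb from the end the in vivo list held 22.1 peaks per Mb and the list without the label 32.9. The last 2 Mb were thus sparser in vivo and denser without the label than the part beyond 20 Mb. From 2 to 5 Mb both were below it, at 14.9 and 32.2. The 8-cell list held 21.2 per Mb in the last Mb and 22.6 beyond 20 Mb, and the 16-cell list 28.7 and 28.6. Day 14 peaks were densest at the distal end, with 369.7 per Mb in the last Mb and 121.7 beyond 20 Mb.

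The autosomes were also taken one by one. The ratio in the last 5 Mb was lower than on the rest of the same chromosome for 29 of 29 autosomes, with a median of 0.634 in the last 5 Mb and 1.05 on the rest. It was lowest on chromosome 5, at 0.356 against 1.08 on the rest of that chromosome, and on chromosome 18 the 2 values differed least, at 1.117 and 1.118. The in vivo peaks that were present near the ends were mostly shared, 74.3% of those in the last Mb against 59.6% of those beyond 20 Mb. Without the label 27.9% of the peaks in the last Mb and 39.2% beyond 20 Mb were shared. At the start of the autosomes both lists were sparse, with 13.3 peaks per Mb in vivo and 27.6 without the label in the first Mb, against 23.8 and 35.9 beyond 20 Mb from the start. The ratio there was 0.754 (0.666 to 0.852) in the first Mb, 0.886 from 1 to 2 Mb and 0.796 from 2 to 5 Mb. Day 14 peaks numbered 130.8 per Mb in the first Mb and 151.8 beyond 20 Mb.

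For a finer map, peaks were counted in 1 Mb windows by their midpoints. Of 2678 windows with a morula peak, 2388 held at least 20 peaks of both lists together. A window was called denser in 1 list where its relative density there was at least 2 times that in the other list, with fewer than 3 peaks in a list set to 3. By this rule 15 windows (0.628%) were denser in vivo and 226 (9.46%) denser without the label. These counts depended on the windows: with starts shifted by 500 kb they were 26 and 194, and with windows of 2 Mb 1 and 111. With the longer list cut to its 57039 widest peaks they were 39 and 126, and with at least 40 peaks per window 12 and 48. The 2 Mb size, the minimum of 40 peaks and the cut list also change how many windows are compared. Those numbers are not given here, so the counts cannot be read as shares. The windows denser in vivo lay on 11 autosomes and none on X. Of those denser without the label 59 lay on X, which was 52.7% of the 112 X windows, and 167 on autosomes, 7.34% of 2276. Near the distal ends, within 5 Mb, 47 of 128 autosomal windows (36.7%) were denser without the label, and within 5 Mb of the start 20 of 104 (19.2%). Elsewhere on the autosomes it was 100 of 2044 (4.89%), and all 15 windows denser in vivo lay there.

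**Figure D5:**
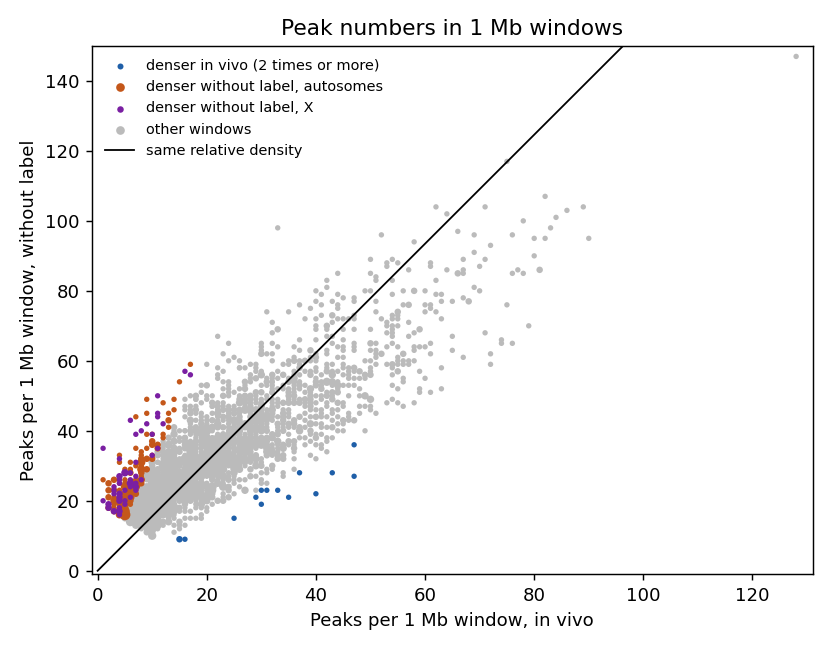
Peaks per 1 Mb window in vivo (x axis) and without the label (y axis), each point being the windows with those counts, larger where several share them; the line marks equal relative density. The 15 windows denser in vivo lie below the line and the 226 denser without the label above it, 59 of them on X.

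The windows with the largest ratios in vivo were modest in size. These windows, and those with the smallest ratios below, were picked by the ratio itself from 2388 windows. Their intervals do not allow for that choice. On chromosome 16 between 56 and 57 Mb there were 40 in vivo peaks and 22 without the label, a ratio of 2.83 (interval 1.64 to 5.004), with 25 of the in vivo peaks unshared. On chromosome 28 between 30 and 31 Mb there were 47 and 27 peaks, a ratio of 2.71 (1.65 to 4.53), and on chromosome 10 between 70 and 71 Mb 35 and 21, a ratio of 2.60 (1.47 to 4.69). The windows on chromosome 23 between 6 and 7 Mb and on chromosome 10 between 48 and 49 Mb held 16 and 15 in vivo peaks and 9 each without the label, with ratios of 2.77 and 2.60 whose intervals began at 1.15 and 1.06. On chromosome 20, 2 neighbouring windows between 13 and 15 Mb together held 72 in vivo peaks and 49 without the label, the longest run of windows denser in vivo, a run picked after its values were seen.

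The windows with the smallest ratios were nearly empty in vivo. On X between 1 and 2 Mb there was 1 in vivo peak and there were 35 without the label, a ratio of 0.134 with the floor of 3 and an interval of 0.0011 to 0.265 for the counts themselves. On chromosome 11 between 79 and 80 Mb there was 1 in vivo peak and there were 26 without the label, and the 16-cell list held 24 peaks there and the 8-cell list 15. On chromosome 4 between 4 and 5 Mb and on chromosome 28 between 45 and 46 Mb there were 3 in vivo peaks and 26 without the label in each window, a ratio of 0.180 (0.0348 to 0.587). The window on chromosome 28 lies at the distal end. On chromosome 9 between 100 and 101 Mb there were 2 and 25, with 20 peaks at the 16-cell stage. Over all 226 windows denser without the label, 69.7% of the 1417 in vivo peaks and 16.6% of the 5963 peaks without the label were shared, and the median window held 6 in vivo peaks, 24 without the label, 14 at the 8-cell stage and 19 at the 16-cell stage.

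Some of the windows denser in 1 list adjoined each other. The longest run, picked after its values were seen, covered 6 windows on X between 127 and 133 Mb, with 56 in vivo peaks and 239 without the label. On the autosomes the longest was on chromosome 9 between 102 and 106 Mb, at its distal end, with 42 in vivo peaks and 167 without the label.

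All autosomal windows with at least 1 morula peak, with no minimum of 20, were also ranked by their 16-cell peaks and split into 5 classes of 505 or 506 windows. The summed peaks gave a ratio of relative densities of 0.841 in the class with the fewest 16-cell peaks, which held 4461 in vivo peaks and 8262 without the label. It was 0.913, 0.968 and 1.04 in the next ones and 1.13 in the class with the most, which held 21169 and 29106. Ordered by day 14 peaks the ratio was 0.794, 0.959, 1.09, 1.095 and 1.05. The 16-cell and day 14 lists entered neither the split of the peaks nor the ratio.

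Of the 5 widest in vivo only peaks 3 had a counterpart at day 14 alone. The widest spanned 3549 bp on chromosome 17, from 51479952 to 51483500, and was open in the 16-cell, both blastocyst and day 14 lists. Those on chromosome 8 from 74872587 to 74875749 (3163 bp), chromosome 12 from 70193377 to 70196380 (3004 bp) and chromosome 11 from 74625537 to 74628526 (2990 bp) had a day 14 peak and no other counterpart. The peak on chromosome 12 lay only 3 bp from a peak without the label, so that it is unshared by its edge alone, whereas on chromosome 11 the nearest such peak was 27293 bp away. The fifth, on chromosome 16 from 33173043 to 33175516 (2474 bp), had a 16-cell peak alone.

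The widest without-label only peaks, by contrast, all had a 16-cell peak, and 4 of the 5 an 8-cell peak. The 3 widest lay on chromosome 2 from 80651803 to 80656383 (4581 bp), chromosome 7 from 112591230 to 112595807 (4578 bp) and X from 108858647 to 108863185 (4539 bp). All 3 had 8-cell and 16-cell peaks, and the one on X also a day 14 peak. Next came one of 4117 bp on X from 100163732 to 100167848, with a 16-cell peak alone and an in vivo peak 393 bp away. The fifth lay on chromosome 12 from 41396592 to 41400097 (3506 bp), with peaks in the 8-cell, 16-cell and day 14 lists and the nearest in vivo peak 3579 bp away. None of the 5 had a peak in any oocyte, 2-cell, 4-cell or blastocyst list. Those lists are short, with 730 to 5810 peaks. Each had a peak at only 0.060% to 1.15% of all without-label only peaks, so absence is the usual case.

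The widest shared in vivo peaks were open over much of development. Chromosome 17 held 3 of the 5, from 25033165 to 25044772 (11608 bp), from 50865764 to 50875640 (9877 bp) and from 50909479 to 50915752 (6274 bp), and all 3 had peaks in every embryo list and in neither oocyte list. Without the label the first was split into 4 peaks with 10146 bp in all, the second into 2 with 8431 bp, and the third was a single peak of 6012 bp. The other 2, on chromosome 15 from 34211499 to 34218603 (7105 bp) and chromosome 9 from 13226380 to 13233372 (6993 bp), were wider without the label, at 11276 bp in 4 peaks and 7388 bp in 2. Both were also open at the 8-cell and 16-cell stages and day 14 and in no blastocyst list. Of all shared in vivo peaks, only 0.50% to 2.88% had a peak in any single oocyte or blastocyst list.

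The blastocyst pair, with far shorter lists of 2587 peaks in vivo and 3397 without the label, was set beside the morulae for the same contrast. Of the in vivo blastocyst peaks 35.0% and of those without the label 30.6% were shared, with 27.4% of the bases in common. X density relative to the autosomes was 1.76 in vivo and 2.03 without the label, a ratio of 0.868 against 0.497 in the morulae. In the last 5 Mb of the autosomes there were 57 peaks in vivo and 111 without the label, a ratio of 0.674. The morulae had 0.679 there, from 2227 and 5111 peaks. No interval was computed for the blastocyst ratio, which rests on few peaks, so how close the 2 ratios are cannot be judged. These differences between stages were not tested.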

How the data were processed

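ATAC-seq peaks of 56 libraries in 11 groups were analysed, of which 10 libraries were morulae. The authors merged the peaks of the libraries of a stage into 1 list per group, per the series description, and deposited chromosome, start and end of each merged peak, with no score, height or read count. The submitters' processing notes name build UMD3.1, Bowtie2 2.3, MACS2, bedtools and HOMER; for their order, thresholds, read shifting and merging rule, nothing is given in the sources used here. A peak threshold or merging rule that acts on depth or on the number of libraries would change both the number and the width of merged peaks.

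Starts were read as counted from 0 and are printed counted from 1, so a start could be off by 1 base. Overlaps (1 bp or more), widths, densities and windows were computed with Python 3.11.15, numpy 2.4.6, pandas 2.3.3 and scipy 1.17.1, and plotted with matplotlib 3.10.9. The scripts were tested on simulated data, and bedtools 2.31.1 gave the same number for 8 of 8 overlap counts. A relative density is a list's peaks per Mb divided by that of its whole length, and ratios are in vivo over without the label. Ratio intervals are exact binomial ones at 95%.

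Each group is 1 list, so no test was made and no library could be left out. Named were the 5 widest peaks of each unshared class and of the shared in vivo peaks, the 3 most unequal matched regions in each direction, the 5 most unequal windows in each direction and the 3 highest and lowest autosomes. The members and these rules were chosen with earlier results of these data known. Alternatives were another overlap rule, width minimum, joining of peaks closer than 500 bp, equal list lengths and other windows.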

Additional observations from a re-analysis of the deposited data

Results flagged for a closer look

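The morula and blastocyst lists went in opposite directions under the same contrast in 2 measures, and these differences were not tested, since each group is 1 merged list. Covered length in vivo over that without the label was 0.647 in morulae and 1.17 in blastocysts. In regions where 1 peak faced 1 peak, the median log2 width ratio was -0.23 over 28652 morula regions and 0.11 over 729 blastocyst regions, where the median widths were 552 bp in vivo and 477 bp without the label. Library numbers reversed as well, with 4 in vivo and 6 without the label in morulae, and 4 and 3 in blastocysts. In both pairs the list from more libraries covered more and had the wider matched peaks. Stage and library number therefore cannot be told apart in these 2 measures. Peak number did not reverse. It was lower in vivo in both pairs, at 57039 against 88858 in morulae and 2587 against 3397 in blastocysts.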

How the results depend on the processing

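Of 45 alternative values 15 stayed near the reported one and 30 moved. Shares, width ratios and presence differences counted as moved when outside the interval of the reported value, and window counts when beyond 1.5 times. The X density ratio stayed within 1.5 times and below 1 in all alternatives. No width ratio or presence difference changed sign, whereas shares and window counts have no sign to change. The share of in vivo peaks found in the other morula list was 36.2% when 50% of both peaks had to overlap, 52.8% by midpoint, 60.1% for peaks of at least 268 bp, 71.4% for peaks of at least 535 bp (the median), and 54.7% with the longer list cut to its 57039 widest peaks. For the list without the label these shares were 23.2%, 31.0%, 39.5%, 47.5% and 52.1%, and 39.2% with peaks closer than 500 bp joined and 38.95% without X. The median log2 width ratio was -0.14 under the 50% rule, -0.25 with joined peaks and -0.31 with the longer list cut. The presence difference between in vivo only and without-label only peaks, under the 50% rule, the cut list and equal widths, was -1.60, -13.2 and -7.99 points at the 8-cell stage. It was -3.67, -21.7 and -13.5 points at the 16-cell stage, and -2.40, -9.35 and -6.88 points at day 14. The 50% rule was applied to the stage lists too. Windows denser in vivo numbered 39 with the cut list, 26 with windows shifted by 500 kb and 1 with 2 Mb windows. Windows denser without the label numbered 126 with the cut list, 111 with 2 Mb windows and 48 with at least 40 peaks. The cause of these moves was not tested, apart from what follows by construction. The 2 Mb size and the minimum of 40 peaks leave fewer windows. The cut list kept no peak without the label under 410 bp, whereas in vivo peaks still began at 268 bp. The cut is thus not neutral for width, and its part in the width ratio and presence differences was not measured. Leaving out X and summing widths over all shared regions were chosen after seeing the data. No paired analysis was possible because each group is 1 merged list, and for the same reason no library could be left out. The depth behind the lists is unknown, so a peak missing from a list is not shown to be closed chromatin.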
